A study of Saccharomyces cerevisiae with 18 samples.

Results

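The comparison described here set budding yeast that overexpressed both of the first 2 enzymes of base excision repair against yeast that overexpressed only the first of them. It comprised 6 of the 18 arrays of the series, chosen by their strain labels: 3 arrays of Δapn1/pMAG/pAPN1 and 3 arrays of WT/pMAG. Δapn1/pMAG/pAPN1 carried the apn1-1::HIS3 disruption, the plasmid pYepAPN1-2A with APN1, and pYES-MAG with MAG1. WT/pMAG carried pYES-MAG over the chromosomal APN1 gene. Both strains derived from BGY111 (MATa his3 leu2 ura3-52 trp1 can1 GAL+), and all cells grew at 30°C to mid-log phase in synthetic medium that lacked uracil and held galactose, which turns on the MAG1 plasmid. The other 4 strains of the series, with 3 arrays each, were Δapn1/pAPN1, Δapn1/pMAG, Δapn1 and wild type, and those without pYES-MAG carried the empty pYES plasmid. The 2 strains compared differ by the disruption of apn1 and by the APN1 plasmid at once, and these cannot be told apart in the comparison.

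Base excision repair removes small lesions from DNA. A DNA glycosylase cuts out the damaged base and leaves an abasic site, an AP endonuclease cuts the backbone beside that site, and further enzymes trim the end, fill the gap and seal it. MAG1 encodes the 3-methyladenine DNA glycosylase of budding yeast, which starts the pathway on alkylated bases, and APN1 encodes its main AP endonuclease. The comparison therefore asked what changes in the transcriptome when the second step is raised together with the first, against the first step raised on its own.

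Total RNA was hybridised to Affymetrix Yeast Genome S98 arrays, and every value given here is the log2 signal of a probe set, a group of oligonucleotides designed for 1 transcript. A difference of 1 on this scale is a doubling. Signals ran between 0.0711 and 13.02, and array medians ran between 1.63 and 1.72. Differences are Δapn1/pMAG/pAPN1 minus WT/pMAG, with the standard error (SE) of a limma fit to all 18 arrays. The fit covered 6504 probe sets that name a single gene, and p-values were adjusted over all of them by the Benjamini-Hochberg method. Beside the adjusted p, the thresholds of the study's methods were used, which ask for a 1.5-fold change or more and an unadjusted p below 0.05, and "called" refers to these. The number of arrays limits the precision, and the study describes the replicates as biological without saying how the cultures were kept apart.

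Several arrays stood apart. Δapn1/pMAG/pAPN1 replicate 1 was most like Δapn1/pMAG replicate 2 over all probe sets (r = 0.990), while its correlations with the other arrays of its own strain were 0.965 and 0.984. WT/pMAG replicate 2 was most like Δapn1/pMAG replicate 3 (r = 0.985), against 0.958 and 0.959 within its own strain. Δapn1/pMAG/pAPN1 replicate 2 was closest to wild type replicate 1 (0.978, against 0.965 and 0.966 within its strain). Its replicate 3 was closest to Δapn1/pAPN1 replicate 2 (0.985, against 0.966 and 0.984). WT/pMAG replicate 3 was closest to Δapn1 replicate 3 (0.964, against 0.952 and 0.958). Of the arrays compared, only WT/pMAG replicate 1 was closest to an array of its own strain. Noncoding RNAs (small nuclear, small nucleolar and ribosomal, 69 probe sets) had mean signals of 1.76, 1.84 and 1.85 on the Δapn1/pMAG/pAPN1 arrays, against 2.17, 1.73 and 2.08 on the WT/pMAG arrays. On this measure WT/pMAG replicates 1 and 3 lay with 5 other arrays of the series in a group above 2, and WT/pMAG replicate 2 lay with the Δapn1/pMAG/pAPN1 arrays. That split was chosen after the data were seen, because the largest gap left 1 array alone. The 5′ minus 3′ signal of the ACT1 control, a sign of RNA length, was −0.914, −0.988 and −0.825 on the Δapn1/pMAG/pAPN1 arrays, against −1.40, −0.884 and −1.41 on the WT/pMAG arrays. The part of these properties in the results was not tested; the counts with the noncoding RNA signal as a block are given among the alternatives.

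One WT/pMAG array also held low signals for probe sets that were bright elsewhere. Of 1968 probe sets with a median above 3 over the 18 arrays, 82 were more than 1.5 below that median on WT/pMAG replicate 1, and 65 of the 82 (79.3%) fell among probe sets numbered 9530 to 11388, which held 25% of the bright ones. WT/pMAG replicate 2 had 19 such probe sets, 14 of them in that range, and WT/pMAG replicate 3 had 26, with 3 there. The Δapn1/pMAG/pAPN1 arrays had 18, 5 and 19, with 4, 0 and 4 there. Probe sets that are low on WT/pMAG replicate 1 are marked below, because they raise the difference. Those low on WT/pMAG replicate 2 are not marked.

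**Figure D1:**
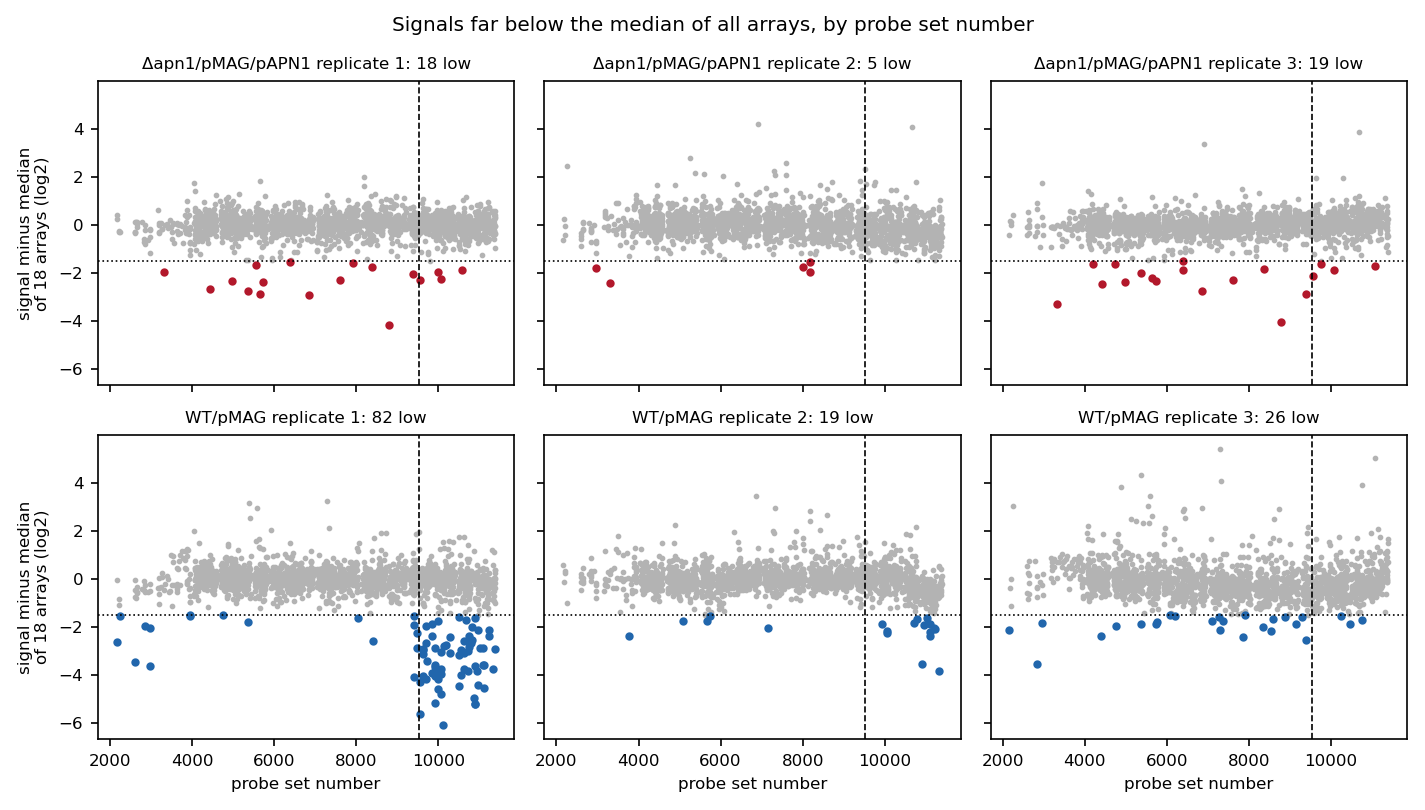
Signal minus the median of all 18 arrays (log2, y axis) against the probe set number (x axis) for the 1968 bright probe sets, with the 3 Δapn1/pMAG/pAPN1 arrays in the top row and the 3 WT/pMAG arrays in the bottom row. Coloured points lie more than 1.5 below the median, the dashed line marks the start of the range numbered 9530 to 11388, and WT/pMAG replicate 1 holds 65 of its 82 low points beyond that line.

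APN1 rose in Δapn1/pMAG/pAPN1 cells and was 1 of only 2 probe sets past an adjusted p of 0.05. Its signals were 4.57, 7.48 and 7.26 on the 3 Δapn1/pMAG/pAPN1 arrays, against 1.67, 2.85 and 2.01 on the WT/pMAG arrays. No array of one strain overlapped the other, but Δapn1/pMAG/pAPN1 replicate 1 lay clearly below its own strain's other arrays. The difference was 4.26 (SE 0.56, 95% confidence interval 3.06 to 5.45), with an adjusted p of 0.0103 in limma. The WT/pMAG signals were at or little above the array medians, so no fold is given. Without Δapn1/pMAG/pAPN1 replicate 1 it was 5.19 with an adjusted p of 1.93e-06, without Δapn1/pMAG/pAPN1 replicate 3 it was 3.84 with 0.0598, and without WT/pMAG replicate 1 it was 4.0 with 0.0567.

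The low APN1 signal of that array can be set against the other strains. Δapn1/pAPN1 arrays, with the same plasmid and no pYES-MAG, read 7.96, 7.49 and 7.27, against 1.14, 1.26 and 1.88 in wild type, a rise of 6.14 (limma adjusted p = 0.000105). Δapn1/pMAG arrays, with no APN1 plasmid, read 3.97, 3.64 and 4.38, and Δapn1 arrays read 2.98, 2.81 and 3.15. At 4.57, Δapn1/pMAG/pAPN1 replicate 1 was therefore nearer to the Δapn1/pMAG arrays than to any array of a strain labelled with the plasmid, and counts of calls that change without it are given without it as well. The disrupted strains without the plasmid were above wild type at this probe set, so its signal does not mark the intact gene alone.

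LEU2, an enzyme of leucine synthesis whose chromosomal copy the parent strain lacks in working form, was high on the arrays with an APN1 signal above 7. In the study's frameshift assays, leucine was left out of the medium to keep the APN1 plasmid, named YEpAPN1 there. Its probe set read 5.94, 9.95 and 9.15 on the Δapn1/pMAG/pAPN1 arrays, against 6.12, 5.23 and 6.73 on the WT/pMAG arrays. Replicate 1 of Δapn1/pMAG/pAPN1 lay within the range of WT/pMAG, and the other two lay above it. The difference of 2.33 (SE 0.79, limma adjusted p = 0.408) passed the thresholds of the methods, and it was 3.53 without that array. A pair of further LEU2 probe sets differed by 2.03 and 2.00. In Δapn1/pAPN1 against wild type the first LEU2 probe set was 4.19 higher.

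MAG1 itself was not held equal between the strains compared. Its signals were 3.80, 2.83 and 1.82 on the Δapn1/pMAG/pAPN1 arrays, against 6.14, 1.48 and 6.91 on the WT/pMAG arrays. Replicates 1 and 3 of WT/pMAG were above all of Δapn1/pMAG/pAPN1 and replicate 2 was below all of them, so the strains overlapped. The difference of −2.03 (SE 1.26, 95% confidence interval −4.72 to 0.66, limma adjusted p = 0.606) did not pass either threshold, and its interval holds both a large fall and a small rise. Every array with pYES-MAG was above the range of 0.89 to 1.41 on arrays without it, but WT/pMAG replicate 2 only narrowly. Its 1.48 was below its own array median of 1.66, so that array shows no clear MAG1 signal. The 3 arrays of the series with MAG1 above 6 (WT/pMAG replicates 1 and 3 and Δapn1/pMAG replicate 1) were all in the group with the higher noncoding RNA signal.

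The markers of the strains gave smaller differences. HIS3, the histidine synthesis gene that disrupts apn1 in Δapn1/pMAG/pAPN1, read 2.65, 2.07 and 2.19 in that strain, against 1.28, 1.92 and 1.18 in WT/pMAG, a difference of 0.84 (SE 0.21, limma adjusted p = 0.305), and a second HIS3 probe set was 0.68 higher. URA3, the pyrimidine synthesis gene that cells need in medium without uracil, read 4.98, 4.90 and 5.42 in Δapn1/pMAG/pAPN1, against 7.07, 5.73 and 6.05 in WT/pMAG. That difference of −1.18 (SE 0.65, limma adjusted p = 0.567) did not pass, although the arrays did not overlap. Markers of mating type were read against the MATa label. Of 7 a-specific genes, the a-factor genes MFA1 and MFA2 lay between 6.95 and 9.27 on the Δapn1/pMAG/pAPN1 arrays and between 6.82 and 9.85 on the WT/pMAG arrays, and STE2, BAR1 and AGA2 between 3.39 and 4.99 against 2.92 and 4.74, while STE6 and ASG7 were no higher than 1.78 against 1.57. Of 4 alpha-specific genes, STE3 lay between 1.70 and 1.91 against 1.77 and 1.86, and the alpha-factor genes between 1.51 and 1.65 against 1.49 and 2.98. The alpha-agglutinin gene SAG1 was at 4.36 to 4.85 against 3.91 to 4.94, within the range of several a-specific genes.

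**Figure D2:**
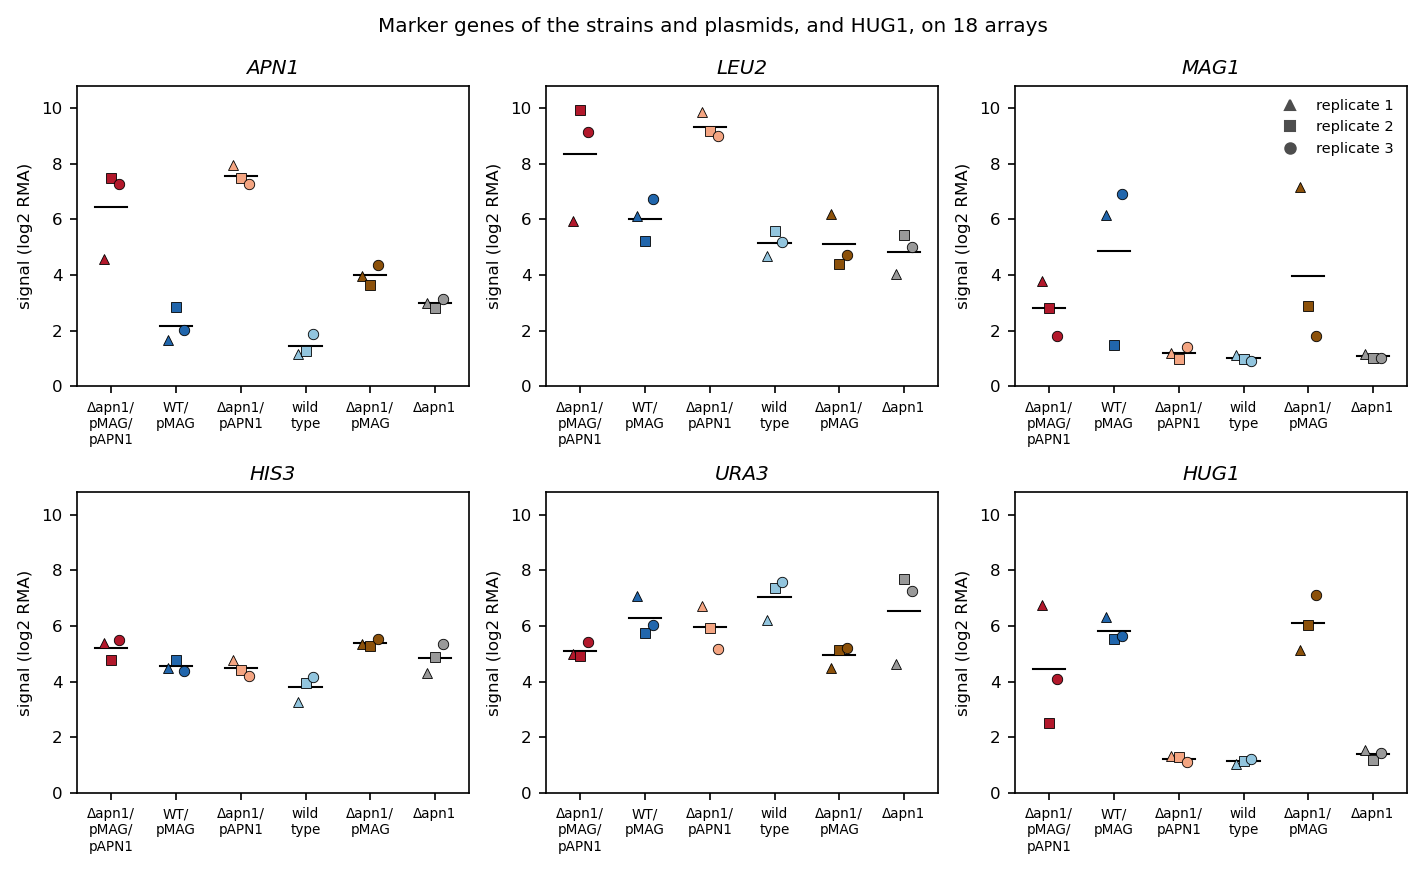
Log2 signals of APN1, LEU2, MAG1, HIS3, URA3 and HUG1 on each of the 18 arrays, by strain from Δapn1/pMAG/pAPN1 at the left, with shapes for replicate numbers and bars at strain means. Replicate 1 of Δapn1/pMAG/pAPN1 sits at 4.57 for APN1 and 5.94 for LEU2, below the other arrays with the APN1 plasmid, and the pYES-MAG strains span 1.48 to 7.17 for MAG1.

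Across the transcriptome 2 probe sets passed the adjusted p. These were APN1 and FMP42, or 0.0308% of the 6504 tested, while 634 had an unadjusted p under 0.05. The thresholds of the methods called 326 probe sets (5.01%), of which 206 (3.17%) were higher and 120 (1.85%) lower in Δapn1/pMAG/pAPN1. Counted with 1 probe set a gene, 195 of 5656 genes (3.45%) were called higher and 112 (1.98%) lower, and the median difference over all genes was 0.04. Among the calls, 128 higher and 70 lower probe sets had no overlap between the arrays of the strains, beside 7.44% and 6.13% of all probe sets that did not overlap in these directions. Leaving out each of the 6 arrays in turn kept 60 of the higher and 21 of the lower calls throughout. Of the 60, WT/pMAG replicate 1 was more than 1.5 below the 18-array median in 24 and not in 36. Without Δapn1/pMAG/pAPN1 replicate 1, 151 genes (2.67%) were called higher and 67 (1.18%) lower, and without WT/pMAG replicate 1, 187 (3.31%) and 109 (1.93%). The counts were larger without Δapn1/pMAG/pAPN1 replicate 2 (289 higher and 188 lower) and without WT/pMAG replicate 2 (309 and 189). The number past the adjusted p was 1, 7 and 0 without replicates 1, 2 and 3 of Δapn1/pMAG/pAPN1, and 0, 2 and 14 without those of WT/pMAG. All of the 14 but FMP42 were numbered 9530 to 11388, the range that held most of the low signals of WT/pMAG replicates 1 and 2.

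FMP42, a vacuolar membrane protein, was the other probe set past the adjusted p. It read 5.23, 5.18 and 5.01 in Δapn1/pMAG/pAPN1, against 3.06, 3.80 and 3.66 in WT/pMAG. The difference was 1.63 (SE 0.23, limma adjusted p = 0.0103), or 3.09-fold. All 3 WT/pMAG arrays were low, and replicate 1 was 1.90 below the 18-array median. Wild type averaged 5.11 ± 0.31 (SD, n = 3), so WT/pMAG stood 1.61 below it (limma adjusted p = 0.0231), and Δapn1/pMAG/pAPN1 was at the level of wild type. Without WT/pMAG replicate 1 the difference was 1.41 with an adjusted p of 0.0567, and without Δapn1/pMAG/pAPN1 replicates 1 and 3 in turn it was 1.58 with 0.0641 and 1.69 with 0.0598. The probe set numbered next to it, for the sterol synthesis gene ERG8, read 0.73 on WT/pMAG replicate 1, against 4.33 and 4.23 on the other WT/pMAG arrays, and its difference of 1.73 became 0.55 without that array.

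Of 18 measured genes of base excision repair, 3 were called higher and none lower, beside 3.45% and 1.98% of all genes, with a median difference of 0.08. Apart from APN1 these were UNG1, the uracil DNA glycosylase, and POL30, the sliding clamp of DNA polymerases. The higher calls were 1 without Δapn1/pMAG/pAPN1 replicate 1 or 3, and 5 without its replicate 2. UNG1 read 2.01, 1.79 and 2.31 in Δapn1/pMAG/pAPN1, against 0.45, 1.74 and 1.70 in WT/pMAG, and its difference of 0.74 became 0.32 without WT/pMAG replicate 1. POL30 read 4.76, 3.46 and 4.93, against 4.17, 3.40 and 3.08, with overlap between the strains. APN2, the second AP endonuclease, differed by −0.28 (SE 0.19) and was not called. Neither recombination, excision and mismatch repair (26 measured genes) nor translesion synthesis and post-replication repair (10 measured genes) held a gene called higher, and 1 gene of the second list was called lower (0 to 3 with 1 array left out).

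The genes next to APN1 on the chromosome were also read. PRR1, a protein kinase 1 place from APN1 in the annotation, read 2.64, 2.93 and 3.43 in Δapn1/pMAG/pAPN1, against 0.39, 1.80 and 2.34 in WT/pMAG, a difference of 1.49 (SE 0.35, limma adjusted p = 0.3) that was 0.93 without WT/pMAG replicate 1, and 1.21 in Δapn1/pAPN1 against wild type. A second PRR1 probe set differed by 0.36 and −0.15 in these comparisons. RAD27, the flap endonuclease on the other side of APN1, differed by 0.42 with overlap, and by 1.02 in Δapn1/pAPN1 against wild type. SBA1, the co-chaperone gene 2 places away, was called higher by 1.46 (SE 0.67), but differed by −0.46 in Δapn1/pAPN1 against wild type, and by 0.25 without WT/pMAG replicate 1. What the plasmid carries beside APN1 was not tested.

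The transcripts of the DNA damage checkpoint gave no call, and HUG1 spread widely among the Δapn1/pMAG/pAPN1 arrays. Of 23 measured genes of the checkpoint and of ribonucleotide reductase, none was called in either direction, and the median difference was 0.04. Over all genes 3.45% were called higher and 1.98% lower, with a median of 0.04, so few calls would be looked for in a list of this size. HUG1, a small inhibitor of ribonucleotide reductase whose transcript rises on DNA damage, read 6.75, 2.51 and 4.11 in Δapn1/pMAG/pAPN1, against 6.31, 5.54 and 5.63 in WT/pMAG. Replicates 2 and 3 of Δapn1/pMAG/pAPN1 were below all of WT/pMAG and replicate 1 was above them. The difference was −1.37 (SE 0.73, 95% confidence interval −2.92 to 0.18, limma adjusted p = 0.562). Without replicate 1 it was −2.52 (limma adjusted p = 0.175).

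HUG1 was high in the strains with pYES-MAG and low in those without it. Δapn1/pMAG arrays read 5.13, 6.02 and 7.13, while every array without pYES-MAG lay between 1.03 and 1.53. Thus both strains compared were above that range on each array, Δapn1/pMAG/pAPN1 replicate 2 by the smallest margin. RNR3, a large subunit of the reductase that DNA damage induces, read 4.77, 3.60 and 3.13 in Δapn1/pMAG/pAPN1, against 5.01, 3.66 and 4.91 in WT/pMAG. It differed by −0.69 (SE 0.38), and by −1.16 without Δapn1/pMAG/pAPN1 replicate 1. RNR1, the constitutive large subunit, differed by 0.70 (SE 0.62), and the small-subunit genes RNR2 and RNR4 by 0.01 and −0.11, all with overlap. Without Δapn1/pMAG/pAPN1 replicate 1, 2 genes of this list were called lower, without its replicate 2, 1 was called higher, and without WT/pMAG replicate 2, 1 was called lower.

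Lysine synthesis held more higher calls than lower ones. Of 10 measured lysine synthesis genes, 5 were called higher and none lower, with a median difference of 0.64, beside 3.45% of all genes called higher and a median of 0.04. LYS9, a saccharopine dehydrogenase, read 4.86, 4.25 and 4.68 in Δapn1/pMAG/pAPN1, against 3.91, 4.05 and 2.82 in WT/pMAG, a difference of 1.00 (SE 0.30). LYS1, the last enzyme of the pathway, was 1.22 higher with overlap, since replicate 2 of Δapn1/pMAG/pAPN1 lay below replicate 2 of WT/pMAG. LYS4, homoaconitase, was 0.72 higher. The count was 4 without Δapn1/pMAG/pAPN1 replicate 1 and 5 without WT/pMAG replicate 1, and it was 3 without WT/pMAG replicate 3. None of the 10 was called in Δapn1/pAPN1 against wild type, although their median difference there was 0.34, beside 0.03 over all genes.

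In the list of aromatic amino acid, serine, glycine and threonine synthesis, 4 of 29 measured genes were called higher and 1 lower, beside 3.45% and 1.98% of all genes, with a median of 0.25. ARO9, the aminotransferase that starts the breakdown of aromatic amino acids, read 5.28, 4.90 and 5.42 in Δapn1/pMAG/pAPN1, against 3.62, 3.94 and 2.42 in WT/pMAG. No arrays overlapped, and the difference was 1.88 (SE 0.46, limma adjusted p = 0.305). ARO10, the decarboxylase of the next step, read 4.09, 4.0 and 4.48, against 2.83, 2.59 and 2.43, and was 1.57 higher. ARO8, a second aromatic aminotransferase, was 0.75 higher. The gene called lower was SHM2, the cytosolic serine hydroxymethyltransferase, at 5.43, 7.52 and 4.70, against 7.64, 7.25 and 6.81, a difference of −1.35 with overlap that was −1.36 in Δapn1/pAPN1 against wild type. Its call was lost without Δapn1/pMAG/pAPN1 replicate 1 (−1.12) or 3 (−0.75) and without WT/pMAG replicate 1 (−1.14). ASN2, an asparagine synthetase, was 0.73 higher and held its call in each leave-one-out fit. Without WT/pMAG replicate 2, 7 genes of the list were called higher.

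The tricarboxylic acid cycle had 6 genes called higher and 2 lower of 23 measured, beside 3.45% and 1.98% of all genes, with a median of 0.14. ACO1, the mitochondrial aconitase, read 7.61, 8.05 and 8.19 in Δapn1/pMAG/pAPN1, against 7.12, 6.94 and 6.28 in WT/pMAG, with no overlap and a difference of 1.17 (SE 0.22, limma adjusted p = 0.152). In Δapn1/pAPN1 it was 1.18 higher than in wild type. LSC1, a subunit of succinyl-CoA ligase, was 0.72 higher, and SDH4, the membrane anchor of succinate dehydrogenase, 0.68 higher. MAE1, the mitochondrial malic enzyme, was lower, at 4.95, 4.36 and 5.21, against 6.18, 6.26 and 6.12, a difference of −1.35 (SE 0.32, limma adjusted p = 0.3). Without WT/pMAG replicate 1, 3 genes of the list were called higher and 1 lower, and without Δapn1/pMAG/pAPN1 replicate 1, 7 and 2. The higher calls were also fewer without Δapn1/pMAG/pAPN1 replicate 2 (3) and without WT/pMAG replicate 3 (2), and the lower calls were 1 in each fit that left out an array other than Δapn1/pMAG/pAPN1 replicate 1.

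Other mitochondrial lists also moved with single WT/pMAG arrays. Of 75 measured mitochondrial ribosomal protein genes, 7 were called higher and none lower, beside 3.45% and 1.98% of all genes, with a median of 0.14, and without WT/pMAG replicates 1, 2 and 3 in turn the higher calls were 4, 13 and 3. MRPL49 read 4.11, 3.49 and 3.92 in Δapn1/pMAG/pAPN1, against 0.31, 1.54 and 3.15 in WT/pMAG, and its difference of 2.17 (SE 0.48) became 1.49 without replicate 1. That value still rests in part on the 1.54 of replicate 2. The probe set lies in the range numbered 9530 to 11388, which also held 14 of the 19 low signals of WT/pMAG replicate 2. MRPL20, which was not low on replicate 1, differed by 0.87. Of 44 genes of mitochondrial protein import, 4 were called higher and 1 lower, and the higher calls were 1 without WT/pMAG replicate 1, 10 without its replicate 2 and 2 without Δapn1/pMAG/pAPN1 replicate 3. Leaving out Δapn1/pMAG/pAPN1 replicate 1 gave 3 higher calls and no lower one. The mitochondrial chaperonin HSP60 shows how 1 array can carry a call: it read 8.53, 9.23 and 8.49 in Δapn1/pMAG/pAPN1, against 3.71, 8.20 and 8.29 in WT/pMAG, and its difference of 2.02 was 0.50 without WT/pMAG replicate 1. Of 47 genes of the respiratory chain and ATP synthase, 3 were called higher and 4 lower, and without WT/pMAG replicate 1 none was called higher and 3 lower. These were 3 and 1, 1 and 5, and 2 and 1 without replicates 1, 2 and 3 of Δapn1/pMAG/pAPN1, and 6 and 4, and 1 and 2, without replicates 2 and 3 of WT/pMAG. HAP1, the heme-responsive activator of respiratory genes, was lower at 1.80, 2.00 and 1.58 in Δapn1/pMAG/pAPN1, against 3.09, 2.22 and 2.64 in WT/pMAG, with no overlap and a difference of −0.85 (SE 0.19). Its Δapn1/pMAG/pAPN1 signals were near the array medians of 1.63 to 1.72.

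Several single genes had no overlap and held their call in each leave-one-out fit, and WT/pMAG replicate 1 was not low for them. MSB2, a cell-surface mucin that signals in osmosensing and filamentous growth, had the smallest adjusted p after the 2 that passed (0.104), at 5.30, 5.20 and 4.97 in Δapn1/pMAG/pAPN1, against 4.19, 3.87 and 3.60 in WT/pMAG, a difference of 1.27 (SE 0.22). PMI40, the mannose-6-phosphate isomerase, read 6.04, 5.94 and 6.27, against 5.13, 5.26 and 4.41, and was 1.15 higher. SEC53, the phosphomannomutase that acts after it, read 8.41, 8.07 and 8.47, against 7.59, 7.63 and 6.77, and was 0.99 higher. MCD4, an enzyme of glycosylphosphatidylinositol anchor synthesis, was 1.35 higher (SE 0.26), at 4.21, 3.79 and 4.72, against 3.20, 3.16 and 2.33. HTB2, a histone H2B gene, was 1.21 higher (SE 0.28). It was the only called gene of the 4 histone genes measured, out of 10 listed, beside 3.45% of all genes called higher and 1.98% lower. SPE1, the ornithine decarboxylase of polyamine synthesis, was 0.92 higher, and FCY2, a purine and cytosine permease, 0.96 higher.

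**Figure D3:**
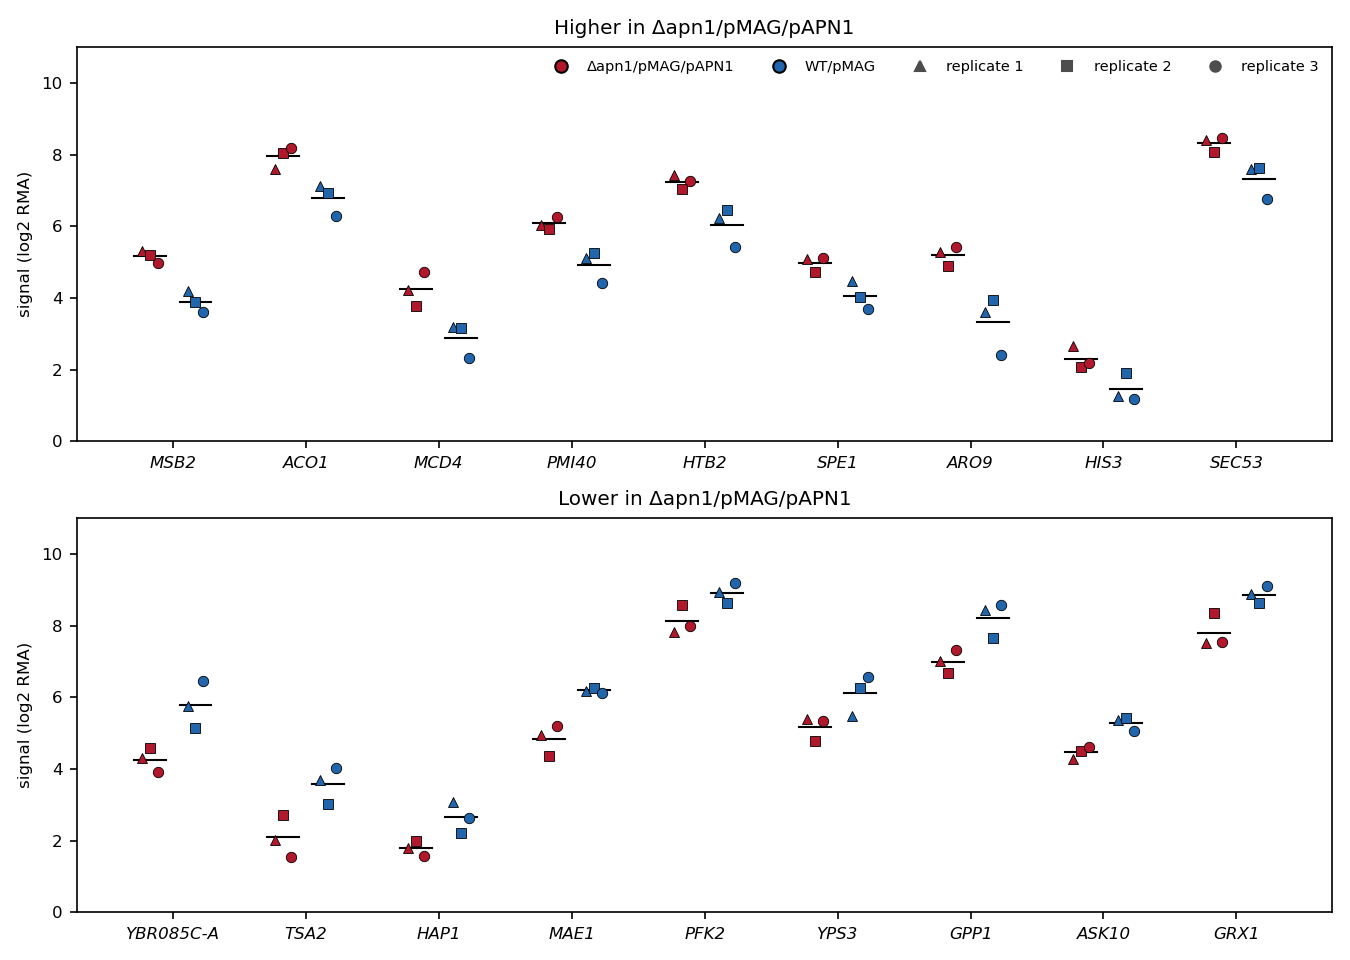
Log2 signals of 9 genes called higher (top) and 9 called lower (bottom) on the 3 Δapn1/pMAG/pAPN1 arrays (red, left in each pair) and the 3 WT/pMAG arrays (blue, right), each point 1 array. The genes were chosen from calls without overlap that held in each leave-one-out fit and were not low on WT/pMAG replicate 1. By that choice the red points lie above all blue points in the top panel and below all of them in the bottom panel. MSB2 is at 4.97 to 5.30 against 3.60 to 4.19, and MAE1 at 4.36 to 5.21 against 6.12 to 6.26.

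Lipid synthesis added a few calls. Of 30 measured sterol synthesis genes, 4 were called higher and none lower, beside 3.45% and 1.98% of all genes (3 without WT/pMAG replicate 1, and 3 without Δapn1/pMAG/pAPN1 replicate 1), with a median of 0.21. ERG4, the last enzyme of ergosterol synthesis, read 7.77, 6.95 and 6.92 in Δapn1/pMAG/pAPN1, against 6.64, 5.93 and 6.21 in WT/pMAG, and was 0.95 higher. ECM22, an activator of sterol genes, was 1.37 higher but also 2.05 below the 18-array median on WT/pMAG replicate 1, and 1.05 higher without it. Of 19 fatty acid synthesis genes, 4 were called higher and none lower, with a median of 0.03, and 2 were called higher without Δapn1/pMAG/pAPN1 replicate 1 or WT/pMAG replicate 3; 1 was called lower without Δapn1/pMAG/pAPN1 replicate 2 and 2 without WT/pMAG replicate 2. The elongases ELO1 and ELO2 were 1.37 and 0.87 higher, and PHS1, the dehydratase of the elongation cycle, 2.15 higher. ELO1 and PHS1 were low on WT/pMAG replicate 1, and without it differed by 0.86 and 0.97. ALD6, the cytosolic aldehyde dehydrogenase that makes acetate, was 1.38 higher, and 1.48 higher in Δapn1/pAPN1 than in wild type.

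Stress and cell surface genes held more lower than higher calls. Of 27 measured heat shock proteins and chaperones, which include mitochondrial ones, 5 were called lower and 1 higher, with a median of −0.79, beside 1.98% of all genes called lower. The higher call was the mitochondrial HSP60 described above, and it was lost without WT/pMAG replicate 1. HSP30, a stress-induced plasma membrane protein, read 1.99, 6.21 and 2.15 in Δapn1/pMAG/pAPN1, against 4.84, 8.34 and 7.85 in WT/pMAG, a difference of −3.56 (SE 1.31) with overlap. Replicate 2 of Δapn1/pMAG/pAPN1 was nearer to WT/pMAG than the other two were. CPR6, a co-chaperone of Hsp90, was 0.91 lower. Without Δapn1/pMAG/pAPN1 replicate 1 none of the list was called lower, and without its replicate 2, 13 were. The lower calls were 1 without Δapn1/pMAG/pAPN1 replicate 3, and 3 and 1 without WT/pMAG replicates 1 and 3.

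Of 31 genes of oxidative stress and redox, 4 were called lower and 1 higher, beside 1.98% and 3.45% of all genes, with a median of 0.01. The lower ones whose arrays did not overlap included TSA2 and AHP1, which are peroxiredoxins, and GRX1, a glutaredoxin. TSA2 read 2.03, 2.71 and 1.54 in Δapn1/pMAG/pAPN1, against 3.69, 3.03 and 4.02 in WT/pMAG, a difference of −1.49 (SE 0.33). AHP1 read 7.02, 6.54 and 6.82, against 7.89, 7.69 and 7.76, and GRX1 read 7.50, 8.36 and 7.54, against 8.87, 8.62 and 9.09. These differed by −0.99 and −1.06, and all 3 held their calls in each leave-one-out fit. The gene called higher was CCP1, cytochrome c peroxidase, whose difference of 1.95 became 0.63 without WT/pMAG replicate 1, where it read 0.50 against 3.85 and 5.06 on the other WT/pMAG arrays. The higher calls of the list were 0, 4 and 3 without replicates 1, 2 and 3 of WT/pMAG, and 2 without Δapn1/pMAG/pAPN1 replicate 3.

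Cell wall mannoproteins, flocculins and yapsins had 6 of 39 measured genes called lower and 1 higher, beside 1.98% and 3.45% of all genes, with a median of −0.01, and 6 were again called lower without Δapn1/pMAG/pAPN1 replicate 1, and 6 without WT/pMAG replicate 1, but 3 without WT/pMAG replicate 3. SPI1, a cell wall protein anchored by a glycolipid, read 5.38, 7.81 and 5.60 in Δapn1/pMAG/pAPN1, against 8.59, 8.02 and 10.05 in WT/pMAG, a difference of −2.63 (SE 0.84, limma adjusted p = 0.395). YPS3, a yapsin protease, read 5.39, 4.79 and 5.33, against 5.49, 6.26 and 6.58, and PST1, a wall protein whose transcript rises on wall damage, 5.27, 6.71 and 5.55, against 6.72, 7.32 and 8.67. These were lower by 0.94 and 1.72 on the log2 scale. The values did not overlap for either gene.

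Sugar metabolism gave a small set of lower calls. Of 12 genes of glycerol metabolism, 3 were called lower and none higher, beside 1.98% and 3.45% of all genes, with a median of −0.24. GPP1 and GPP2, the glycerol-3-phosphatases, differed by −1.22 and −1.43, and GPD2, a glycerol-3-phosphate dehydrogenase, by −1.54. GPP1 read 7.01, 6.67 and 7.31 in Δapn1/pMAG/pAPN1, against 8.43, 7.64 and 8.58 in WT/pMAG, and it held its call in each leave-one-out fit. Without Δapn1/pMAG/pAPN1 replicate 1 a single gene of the list was called lower, and likewise without WT/pMAG replicate 3. Of 27 genes of glycolysis and fermentation, 2 were called lower (4 without Δapn1/pMAG/pAPN1 replicate 2 or WT/pMAG replicate 2, and 1 without Δapn1/pMAG/pAPN1 replicate 1 or 3 or WT/pMAG replicate 3), among them PFK2, a subunit of phosphofructokinase, at 7.82, 8.57 and 8.0, against 8.93, 8.63 and 9.20. None of the 12 measured genes of the galactose regulon was called, with a median difference of 0.29, while 2 were called lower without Δapn1/pMAG/pAPN1 replicate 2, and 1 without WT/pMAG replicate 1 or 2. The lower call with the smallest p in the whole comparison was YBR085C-A, a small protein of unknown function, at 4.30, 4.58 and 3.90, against 5.77, 5.16 and 6.44, a difference of −1.52 (SE 0.33, limma adjusted p = 0.270) beside −1.02 in Δapn1/pAPN1 against wild type.

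**Figure D4:**
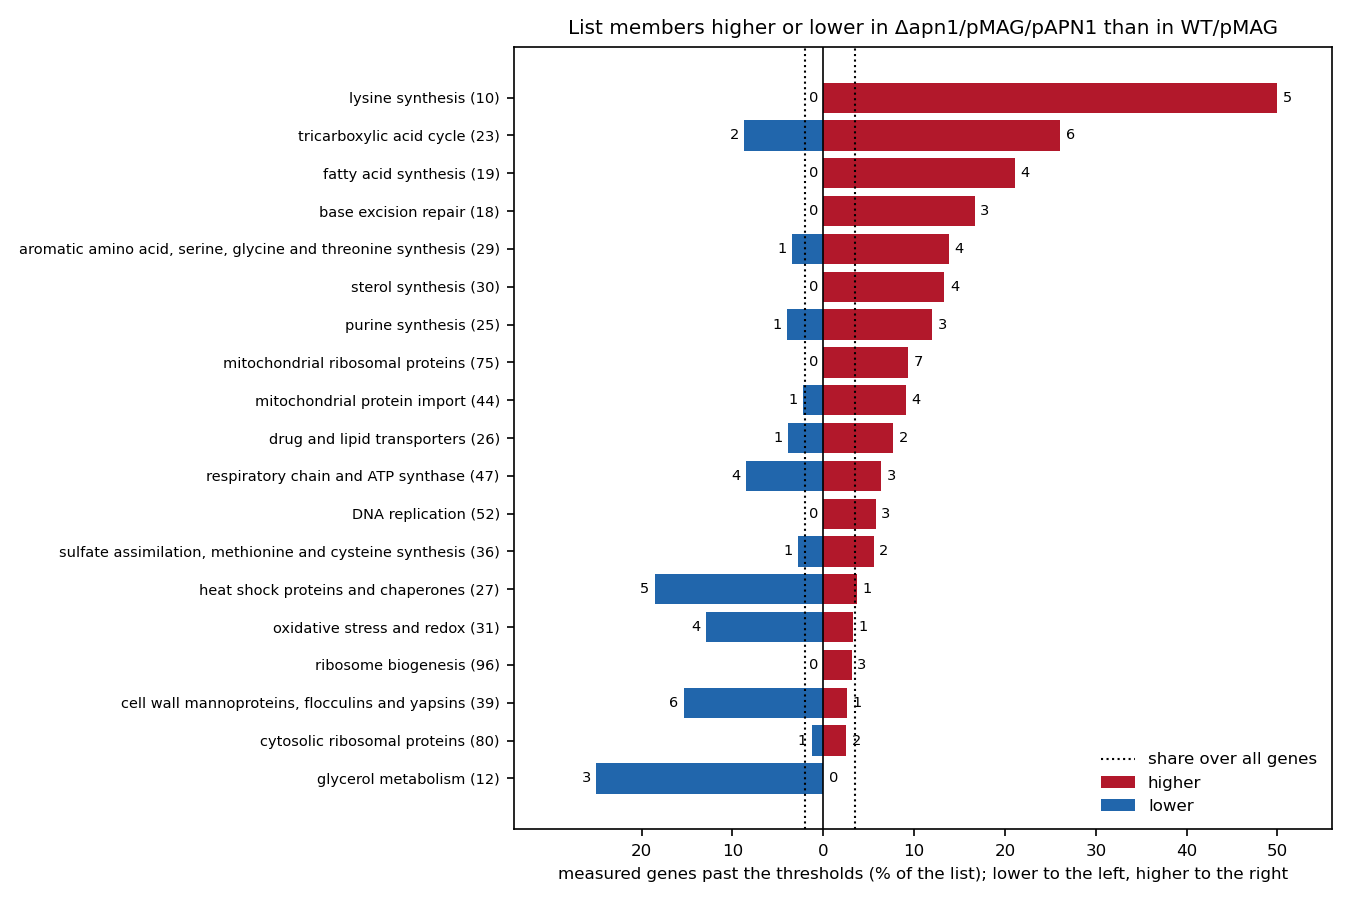
Share of the measured genes of each list called higher (right) and called lower (left) in Δapn1/pMAG/pAPN1 against WT/pMAG, in percent, for lists with at least 3 calls; the marker list is left out. The dotted lines mark the shares over all genes (3.45% higher, 1.98% lower), and lysine synthesis has the largest share called higher among the lists drawn, with 5 of 10 genes.

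The same change of APN1 without the MAG1 plasmid was measured on arrays that the comparison did not use, Δapn1/pAPN1 against wild type. There, 155 genes (2.74%) were called higher and 48 (0.849%) lower. Of the probe sets called in Δapn1/pMAG/pAPN1 against WT/pMAG, 27 were also higher in Δapn1/pAPN1 (13.1% of 206, and 16.6% of 163) and 10 were also lower (8.33% of 120, and 19.2% of 52). No probe set was called in opposite directions. Over the 6504 probe sets the differences of these comparisons correlated at r = 0.357 (Spearman's rho = 0.313), as a description of genes that share arrays and are not independent. APN1, LEU2, ACO1 and ALD6 were called higher in both comparisons. Of these, APN1 is on the plasmid, and LEU2 bears on the leucine selection used for it in the frameshift assays. SHM2 and YBR085C-A were called lower in both, of which SHM2 lost its call without Δapn1/pMAG/pAPN1 replicate 1 or 3 or WT/pMAG replicate 1. The tricarboxylic acid list had 9 genes called higher in Δapn1/pAPN1, the respiratory list 5, and the purine list 5 called lower.

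The difference between these changes was tested in the same fit. No probe set passed the adjusted p in limma, 255 had an unadjusted p under 0.05, and 179 (2.75%) passed the thresholds of the methods. FMP42 had the smallest p, with a difference of the changes of 1.70 (unadjusted p = 8.5e-05, limma adjusted p = 0.553), since Δapn1/pAPN1 and wild type differed by −0.08. For APN1 the difference of the changes was −1.89 (unadjusted p = 0.031, limma adjusted p = 0.999). Its size depends on Δapn1/pMAG/pAPN1 replicate 1, whose APN1 signal was low. Without that array the APN1 difference with pYES-MAG was 5.19 in place of 4.26, which makes the difference of the changes smaller. A p that misses the threshold does not show that the changes were equal with and without pYES-MAG.

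**Figure D5:**
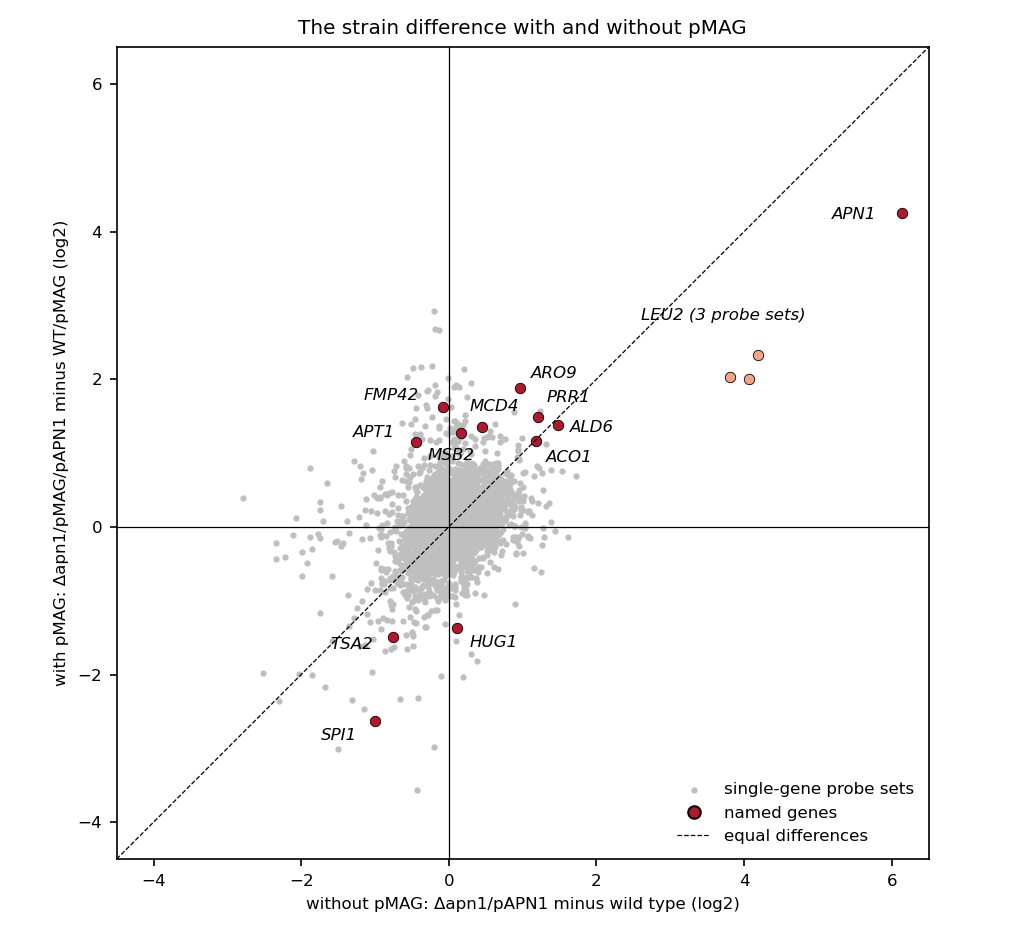
Difference of Δapn1/pMAG/pAPN1 minus WT/pMAG (log2, y axis) against Δapn1/pAPN1 minus wild type (log2, x axis) for all 6504 probe sets, 1 point each, with named genes marked. APN1 (4.26 and 6.14) and the 3 LEU2 probe sets are far to the upper right, and FMP42 (1.63 and −0.08) is high on the y axis alone.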

How the data were processed

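The series matrix holds log2 signals that the authors deposited after robust multi-array averaging (RMA), with 1 column for each of 18 arrays; the RMA software version is not given in the sources used here, and background correction, between-array normalization and probe summary were done before deposit. Of 9335 probe sets, 60 controls, 328 with several gene names and 2443 without a name were left out, which left 6504 probe sets of 5656 genes. Names came from the platform annotation and a RefSeq gene table.

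The values were fitted with limma 3.58.1 in R 4.3.3, with 1 mean for each of 6 strains (12 residual degrees of freedom), and p-values were adjusted over all 6504 probe sets. Counts by gene use the probe set with the highest mean signal. The calculation was tested on simulated data. The same fit was read at the methods' thresholds (1.5-fold or more, unadjusted p below 0.05).

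The comparison and the 49 gene lists (8 listed genes were unmatched) were chosen with earlier results of these data known. Genes were named by rule: strain markers and base excision repair genes, 15 higher and 15 lower calls without overlap, up to 4 members of each list by p, up to 5 genes in each direction by the p of the difference of changes, and HUG1 with RNR1 to RNR4. The 15 calls in each direction were those past the adjusted p, filled up by the smallest p. Neighbours of APN1 and ERG8, beside FMP42 on the array, were named for their position. Alternatives covered normalization, filters, array weights, blocks and leaving out arrays, among them Δapn1/pMAG replicate 1. Those on the second gap in noncoding RNA signal were chosen after seeing the data. So was leaving out Δapn1/pMAG/pAPN1 replicate 1 and WT/pMAG replicate 1 together, which are the arrays called doubted below.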

Additional observations from a re-analysis of the deposited data

Results flagged for a closer look

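APT1, an adenine phosphoribosyltransferase that salvages purines, had differences of opposite sign with and without pYES-MAG. It read 6.29, 5.31 and 5.52 in Δapn1/pMAG/pAPN1, against 3.87, 4.63 and 5.15 in WT/pMAG, a difference of 1.16. In Δapn1/pAPN1 it read 5.84, 5.67 and 5.77, against 5.98, 6.39 and 6.25 in wild type, a difference of −0.45 that was not called. The arrays were fully separated in both comparisons, and the changes differed by 1.60 (SE 0.43, unadjusted p = 0.00187), but the limma p adjusted over all probe sets was 0.999. WT/pMAG replicate 1 was 1.94 below the 18-array median, and without it the first difference was 0.81.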

How the results depend on the processing

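The count of 2 probe sets past the adjusted p was 0 with the methods' test, with only the arrays compared, with array weights and with the second-gap noncoding RNA block, 4 on only the arrays below that gap (where WT/pMAG replicate 2 and wild type replicate 1 stand alone for their strains and are assumed to vary like the others), and 1 without both doubted arrays; leaving out 1 array gave 0 to 14 (1 without Δapn1/pMAG/pAPN1 replicate 1, 7 without its replicate 2, 0 without its replicate 3, 0 without WT/pMAG replicate 1 and 14 without its replicate 3). The 326 probe sets past the thresholds of the methods were 230 to 527 with 1 array left out (504 without Δapn1/pMAG/pAPN1 replicate 2 and 527 without WT/pMAG replicate 2), and 230 with the second-gap block, of which 137 were among the 326. Of the 14 without WT/pMAG replicate 3, all but FMP42 lay in the range numbered 9530 to 11388, where WT/pMAG replicates 1 and 2 held most of their low signals. The causes were not tested.

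For the difference of the changes, 0 probe sets passed the adjusted p, and 0 to 4 with 1 array left out (4 without WT/pMAG replicate 3). The 179 probe sets with a different change with and without pMAG, thresholds of the methods, were 289 with array weights, 528 on only the arrays below the second gap (single arrays of WT/pMAG and wild type), and 108 to 273 with 1 array left out (108 without Δapn1/pMAG/pAPN1 replicate 1 and 273 without WT/pMAG replicate 1).

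Same-numbered arrays deviated together with r = 0.149, 0.0186 and −0.0604, so the numbers do not pair the arrays; with the replicate block 3 probe sets passed the adjusted p (APN1, FMP42 and MSB2), and 308 were probe sets past the thresholds of the methods.

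Against WT/pMAG replicate 2 alone, the only array of its strain below the second gap, MAG1 differed by 1.33, RNR3 by 0.18 and RNR4 (4835_at) by 0.0607, the opposite sign to that over 3 arrays. RNR4 ran between −0.41 and 0.089 with 1 array left out, and was 0.0035 without Δapn1/pMAG/pAPN1 replicate 2 and 0.089 without its replicate 3. RNR2 (11041_at), at 0.01, took values of −0.0207 with median centring, −0.0776 with quantile normalization again, −0.22 without both doubted arrays, and −0.17 to 0.36 with 1 array left out (below 0 without Δapn1/pMAG/pAPN1 replicate 1 or 3 and without WT/pMAG replicate 1 or 2). Of 1714 checks of 78 named probe sets, 1678 kept direction and side of the threshold, 16 lost and 8 gained the adjusted p, and 12 reversed; of 396 checks of list counts, 79 moved by over 1.5 times. With 3 arrays a strain, differences within array spread were not detectable.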

Other observations

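Lists that bear on growth were also counted, beside 3.45% of all genes called higher and 1.98% lower. Of 96 measured ribosome biogenesis genes, 3 were called higher and none lower in Δapn1/pMAG/pAPN1 against WT/pMAG, with a median difference of 0.23, while 17 were called higher without Δapn1/pMAG/pAPN1 replicate 2, 1 without its replicate 1 (median 0.07) or 3, and 5 without WT/pMAG replicate 1. Of 80 cytosolic ribosomal protein genes, 2 were higher and 1 lower, against 0 and 2 without Δapn1/pMAG/pAPN1 replicate 1, 8 and 1 without its replicate 2, 1 and 2 without its replicate 3, 1 and 0 without WT/pMAG replicate 1, and 6 and 1 without its replicate 2. DNA replication had 3 higher calls and no lower one among 52 genes, and none of the higher calls was made without Δapn1/pMAG/pAPN1 replicate 1, against 7 without its replicate 2 and 1 without its replicate 3. None of 25 cyclins and cell cycle regulators was called, and 2 were called higher without Δapn1/pMAG/pAPN1 replicate 2 or 3 or WT/pMAG replicate 1, and 1 without WT/pMAG replicate 3. The a-specific genes STE6, the exporter of a-factor, and BAR1, the protease that degrades alpha-factor, were called higher by 0.70 and 0.71, out of 7 measured, and 1 gene of the list was called higher without Δapn1/pMAG/pAPN1 replicate 3 or WT/pMAG replicate 1 or 3. The STE6 signals, 1.53 to 1.78 against 0.52 to 1.25, were near or below the array medians of 1.63 to 1.72.

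Of 25 purine synthesis genes, 3 were called higher and 1 lower, beside 3.45% and 1.98% of all genes. Leaving out Δapn1/pMAG/pAPN1 replicate 1 gave 2 higher calls and no lower one, and lower calls were 10 without its replicate 2, 3 without WT/pMAG replicate 2 and 6 without its replicate 3. Among the higher ones IMD4, an inosine monophosphate dehydrogenase, read 7.84, 6.54 and 6.66 in Δapn1/pMAG/pAPN1, against 3.02, 6.34 and 6.39 in WT/pMAG, with a difference of 1.77 that became 0.65 without WT/pMAG replicate 1. Of 26 drug and lipid transporters, 2 were called higher and 1 lower, with 1 and 0 without Δapn1/pMAG/pAPN1 replicate 1, 1 and 0 without WT/pMAG replicate 3, and 4 and 1 without WT/pMAG replicate 2. The polyamine exporter TPO1 was 1.25 higher without overlap, at 6.04, 5.95 and 6.31, against 4.68, 5.27 and 4.58. TPO2, another polyamine exporter, was 2.31 lower on the log2 scale with overlap, at 3.84, 5.83 and 3.33, against 5.60, 6.38 and 7.96.

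Among the 2771 probe sets without a name or with several names, 67 passed the thresholds of the methods and 260 had an unadjusted p under 0.05, and in limma none had an adjusted p under 0.05.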
